A study of Homo sapiens with 6 samples.

Results

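A group of 10 genes of transforming growth factor beta (TGF-beta) and bone morphogenetic protein (BMP) signalling were followed across 3 groups of HEK293T cells, an embryonic kidney line of human origin with the SV40 large T antigen. They were the receptors TGFBR1, TGFBR2, ACVR1 and ACVR2A, the signal transducers SMAD3 and SMAD4, the inhibitor SMAD7 and the responsive genes TGFBI, ID1 and ID3. The genes were taken by name from the annotation of the array, which gave 13 of its 48701 probes, and 10 of its 18774 named genes. The groups were untransfected cells, cells given 2 µg of a plasmid with the cloned microRNA cluster of miR-23a, miR-27a and miR-24-2, and cells given 4 µg of it, with biological duplicates of each (2 arrays per group, 6 in all). Transfection was in a well of a 6-well plate. The control was not transfected, per the labels, and an empty plasmid was not among the groups, so effects of the transfection and of the cluster cannot be told apart. All 6 arrays lay on 1 chip, with each group in neighbouring positions, so position and group cannot be told apart either. RNA from whole cultures was measured, in which fewer cells of a kind and less RNA per cell cannot be told apart.

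In this pathway a dimeric ligand joins type II receptors, such as TGFBR2 or ACVR2A, with type I receptors, such as TGFBR1 or ACVR1, and the type I receptor phosphorylates receptor SMADs. SMAD2 and SMAD3 carry TGF-beta and activin signals and SMAD1, SMAD5 and SMAD9 carry BMP signals, and each of these pairs with SMAD4 and enters the nucleus. SMAD6 and SMAD7 are inhibitors that the pathway itself induces. TGFBI takes its name from its induction by TGF-beta, and ID1 and ID3 are classic early targets of BMP signals. Several of the 10 genes have been published as targets of microRNAs of the cluster.

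The mature microRNAs of the cluster are shown because their seeds, the bases that pair first with a target, define which transcripts they can bind. Capitals mark the seed, bases 2 to 8, and the sequences are those of RefSeq on GRCh38.p14, on the minus strand, at chr19:13836595-13836615, chr19:13836447-13836467 and chr19:13836289-13836310 in the order given.
hsa-miR-23a-3p: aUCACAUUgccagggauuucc
hsa-miR-27a-3p: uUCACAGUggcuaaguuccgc
hsa-miR-24-3p: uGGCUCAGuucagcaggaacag
The seeds of miR-23a-3p and miR-27a-3p share their first 5 of 7 bases, and that of miR-24-3p shares 0 leading bases with either. The 3′ UTRs of the 10 genes were not analysed here.

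The promoters of ID1 and TGFBI are shown because these genes moved in opposite directions at both doses. Each line holds the 250 bases before the annotated start on the plus strand of GRCh38.p14, from RefSeq, for ID1 at chr20:31605039-31605288 and for TGFBI at chr5:136028738-136028987. Capitals mark motif matches, searched on both strands. One motif was the SMAD box CAGAC. Another was GGCGCC, rich in G and C, which SMADs can bind and which reads the same on both strands. The last was the TATA motif, spelled TATAAA.
ID1: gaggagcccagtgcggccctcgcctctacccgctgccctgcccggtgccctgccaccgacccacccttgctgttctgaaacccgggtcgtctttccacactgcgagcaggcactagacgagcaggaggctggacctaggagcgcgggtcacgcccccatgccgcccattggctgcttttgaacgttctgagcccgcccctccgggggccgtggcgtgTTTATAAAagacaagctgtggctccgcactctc
TGFBI: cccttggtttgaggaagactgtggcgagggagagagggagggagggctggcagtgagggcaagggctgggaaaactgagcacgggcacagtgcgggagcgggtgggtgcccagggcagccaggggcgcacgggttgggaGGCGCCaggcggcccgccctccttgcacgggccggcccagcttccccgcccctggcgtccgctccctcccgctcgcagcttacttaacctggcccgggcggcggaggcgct
The ID1 window held 2 overlapping matches to the TATA motif, one on each strand, and the TGFBI window held 1 match to GGCGCC. Of 35116 windows of the same length in the table, 10.7% held TATAAA, 16.4% held GGCGCC and 38.0% held CAGAC. The SMAD box was in 0 windows of ID1, TGFBI, SMAD4, TGFBR2 and ACVR2A, in the 1 window of ID3, and in 4 of 8 windows of TGFBR1, 1 of 3 of ACVR1, 2 of 5 of SMAD3 and 2 of 3 of SMAD7, genes with several annotated starts.

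Intensities were normalized together and are given on the log2 scale, with 1 value per array. A probe was called detected on an array when its detection p-value, which compares it with the negative controls of the array, was under 0.01. Genes with a probe detected on both arrays of any group were tested, 8018 in all, with 8 of the 10 members among them. A gene undetected in a group thus entered the test only through a group where its signal was higher. The arrays read each probe from a median of 40 beads and detected between 9278 and 10371 probes. Over the tested genes, as a description only since genes are no replicates, duplicates correlated at 0.98979 to 0.99407 and arrays of different groups at 0.94807 to 0.98354. The epithelial and mesenchymal markers VIM, KRT8, KRT18 and KRT19 were detected on all 6 arrays and the neurofilament genes NEFL and NEFM on 4, while PAX2, LHX1 and MYCN were detected on 0. Of the blood cell markers, CD68 was detected on all 6 arrays and PTPRC, CD3E, CD14 and HBB on 0. Of the endothelial markers, TEK was detected on 2 arrays and PECAM1, CDH5 and KDR on 0, and of the muscle markers ACTA2 was detected on all 6 and DES and MYH11 on 0. Differences below are log2 values of limma, fitted on all 6 arrays, with standard errors (SE) and p-values adjusted by Benjamini-Hochberg over all tested genes. Where a fold is given as a bound, with the words at least, the adjusted p beside it is that of the fitted difference. The bounds themselves were not tested.

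ID1 was called lower, and TGFBI and SMAD4 higher, at both plasmid doses, while ACVR1 and SMAD7 were called higher at 4 µg only. At 2 µg ACVR1 and SMAD7 stood 0.35 and 0.36 above control, just short of the threshold by limma (adjusted p = 0.0534 and 0.0659). Their differences between the doses did not pass either (adjusted p = 0.16 and 0.304). TGFBI was not detected in the control and entered the test only through the transfected groups, so its rise is not independent of that filter. At 2 µg 3 of the 8 tested members were called, 2 higher and 1 lower, which is 37.5%, against 41.6% of all tested genes (21.8% higher and 19.8% lower). At 4 µg 5 members were called, 4 higher and 1 lower, which is 62.5%, against 22.0% of all tested genes (11.8% higher and 10.2% lower). Both comparisons share the control arrays. Testing only probes detected on all arrays leaves TGFBI out. There 3 of 7 members (42.9%) were called at 2 µg, against 42.5% of all tested genes. At 4 µg it was 4 of 7 (57.1%), against 23.2%. The median difference over the 8 members was 0.25 at 2 µg and 0.32 at 4 µg (0.20 at 4 µg with TGFBI at its bound), against 0.03 over all tested genes at each dose. The arrays of the groups did not overlap for 7 of 8 members at 2 µg, against 69.6% of all tested genes, and for 7 of 8 at 4 µg, against 65.8%. At 2 µg the count was 5 of 8 (62.5%) without 2 µg replicate 1, with no background correction and with the authors' processed values, where 36.6%, 43.0% and 39.6% of all tested genes were called. It was 2 (25%) without control replicate 1, control replicate 2 or 2 µg replicate 2, against 30.8%, 30.9% and 34.1%. The share of members called at 2 µg thus lay below or above that of all genes depending on the setting. At 4 µg the count was 2 (25%) without control replicate 1, 4 µg replicate 1 or 4 µg replicate 2, against 9.63%, 9.08% and 9.22% of all tested genes, and 3 (37.5%) without control replicate 2, against 11.7%.

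**Figure D1:**
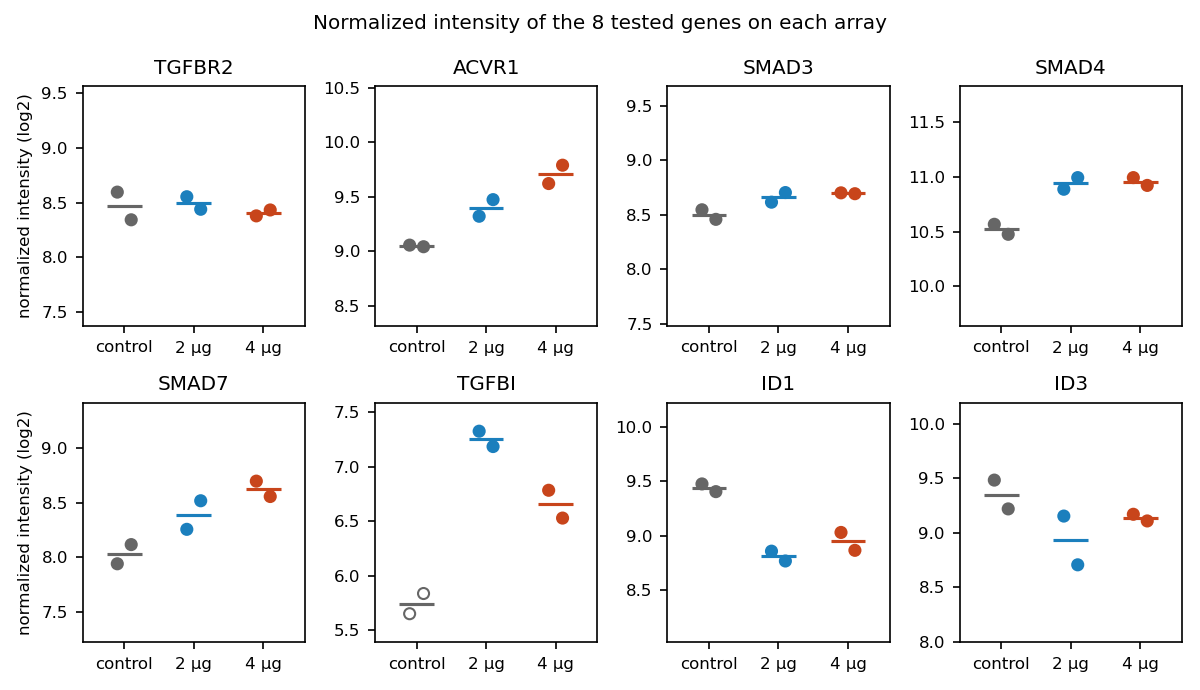
Normalized intensity (log2, vertical axis) of the 8 tested genes in the control, 2 µg and 4 µg groups. Each point is 1 array, filled where the probe was detected, each line is the mean of the 2 arrays, and every panel spans the same log2 range. ACVR1 and SMAD7 are lowest in the control and highest at 4 µg, TGFBI is highest at 2 µg, and ID1 is highest in the control.

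Among the receptors, ACVR1, a type I receptor also known as ALK2 that serves BMPs and activins, read 9.06 and 9.04 on the control arrays, 9.32 and 9.47 at 2 µg and 9.62 and 9.79 at 4 µg. The 3 groups did not overlap. The scanner intensity before normalization, not corrected for differences between arrays, was 603.6 and 646.1 in the control and 973.5 and 1161.4 at 4 µg. ACVR1 rose at 4 µg by 0.66 (SE 0.13), a 1.58-fold rise (adjusted p = 0.00684), which was lost when 4 µg replicate 2 was left out (adjusted p = 0.0662). At 2 µg the difference was 0.35 (SE 0.13, adjusted p = 0.0534) and did not pass. It passed with no background correction (adjusted p = 0.0289), with the authors' processed values (0.0303) and when only probes detected on all arrays were tested (0.044).

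TGFBR2, the type II receptor that binds TGF-beta, read 8.60 and 8.34 in the control, 8.55 and 8.44 at 2 µg and 8.38 and 8.43 at 4 µg. The control arrays lay farther apart than any of the group means. The difference from control was 0.03 at 2 µg (95% interval -0.27 to 0.33, adjusted p = 0.886) and -0.06 at 4 µg (95% interval -0.36 to 0.24, adjusted p = 0.766), so changes beyond these bounds lie outside the intervals. Its sign turned with the scaling at 4 µg, where it was 0.14 with median scaling over all probes. The other 2 probes annotated to TGFBR2 were detected on 0 of 6 arrays, with scanner intensities between 164.6 and 212.3.

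TGFBR1, the type I receptor for TGF-beta, was too dim for the test. Its probe read 211.5 and 211.4 on the control arrays, 223.5 and 239.7 at 2 µg and 214.3 and 218.4 at 4 µg, and it was detected on the second array of each dose, 2 of 6 arrays in all. With no detection filter its difference was 0.30 at 2 µg (SE 0.17, adjusted p = 0.315) and 0.08 at 4 µg (SE 0.17, adjusted p = 0.871). ACVR2A, a type II receptor for activins and BMPs, was detected on 0 of 6 arrays, with intensities between 124.8 and 154.8 and detection p-values between 0.411 and 0.668. For these probes a difference between groups was not detectable over the background of the arrays.

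**Figure D2:**
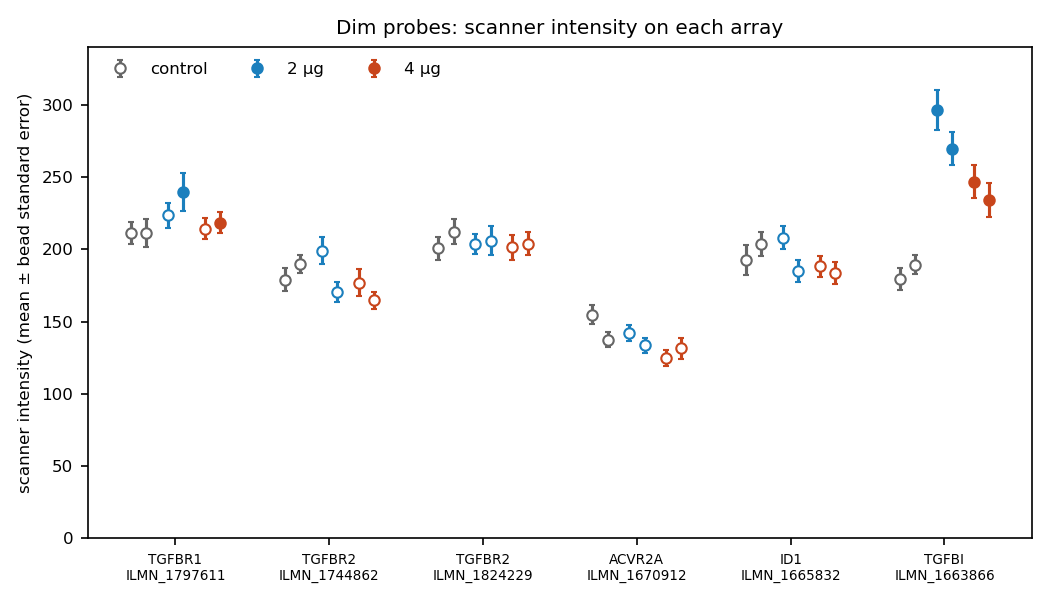
Scanner intensity before normalization (linear scale from 0, vertical axis) of the 5 member probes that were not kept and of the TGFBI probe, on each of the 6 arrays. Points are array values with the standard error over beads, filled where detected and coloured by group. TGFBI stands at 179.6 and 189.4 in the control and between 234.2 and 296.6 in the transfected groups, while the ACVR2A probe stays at or below 154.8.

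Among the transducers, SMAD4 is the partner common to all receptor SMADs. It read 10.57 and 10.47 in the control, 10.89 and 10.99 at 2 µg and 10.99 and 10.92 at 4 µg. Both doses lay above the control and overlapped each other. SMAD4 rose by 0.42 at 2 µg (SE 0.13, adjusted p = 0.0208) and by 0.44 at 4 µg (SE 0.13, adjusted p = 0.031), a 1.34-fold and a 1.35-fold rise. The call at 2 µg was lost when control replicate 1, control replicate 2 or 2 µg replicate 2 was left out, with adjusted p = 0.0502, 0.0976 and 0.0801. The call at 4 µg was lost when any 1 of the control and 4 µg arrays was left out, with adjusted p = 0.0814 and 0.131 for the controls and 0.18 and 0.116 for 4 µg, and when arrays were scaled to the median of the tested genes (0.0538).

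SMAD3, which carries TGF-beta and activin signals, read 8.55 and 8.46 in the control, 8.62 and 8.71 at 2 µg and 8.70 and 8.69 at 4 µg. Each dose lay above the control without overlap, by 0.16 at 2 µg (SE 0.12, adjusted p = 0.332) and by 0.20 at 4 µg (SE 0.12, adjusted p = 0.279), and neither passed the test. The 95% intervals ran from -0.12 to 0.43 and from -0.08 to 0.47. SMAD7, which blocks the type I receptors, read 7.94 and 8.11 in the control, 8.25 and 8.52 at 2 µg and 8.70 and 8.56 at 4 µg. The 3 groups followed each other without overlap. SMAD7 rose at 4 µg by 0.60 (SE 0.14), a 1.52-fold rise (adjusted p = 0.0146). The call was lost when control replicate 1 (0.0961) or 4 µg replicate 1 (0.106) was left out. At 2 µg the difference was 0.36 (SE 0.14, adjusted p = 0.0659), and it passed when the processed values of the authors were used (0.0419) and without 2 µg replicate 1 (0.038).

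TGFBI, a secreted protein of the extracellular matrix, had the widest span of the members. It read 5.65 and 5.84 in the control, where it was detected on 0 of 2 arrays, 7.32 and 7.18 at 2 µg and 6.78 and 6.53 at 4 µg. The 3 groups did not overlap, with 2 µg the highest. Because the control gives only a bound, TGFBI was at least 1.75-fold higher at 2 µg (adjusted p = 4.1e-05) and at least 1.16-fold higher at 4 µg (adjusted p = 0.00212). These compare the mean of the bright group with the lowest signal of any detected probe on each control array. The measured differences, to which the adjusted p-values belong, were 1.51 and 0.91 (SE 0.14 each), and the bounds were not tested. Their size depended on the background step, from 0.66 with no background correction to 2.05 with the authors' processed values at 2 µg, and from 0.37 to 1.40 at 4 µg, with the call kept each time.

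ID1, which binds basic helix-loop-helix factors and keeps them from DNA, read 9.48 and 9.41 in the control, 8.86 and 8.77 at 2 µg and 9.03 and 8.87 at 4 µg. All 4 arrays of transfected cells lay below both controls, and the doses did not overlap, by a margin under 0.01. At 2 µg ID1 fell 1.54-fold, by 0.63 (SE 0.13, adjusted p = 0.00314), and the call held under all 17 alternatives run, with adjusted p from 0.00103 to 0.0245. At 4 µg it fell 1.41-fold, by 0.49 (SE 0.13, adjusted p = 0.0218). That call ended with median scaling over all probes (difference -0.28, adjusted p = 0.251), with the authors' own processing (-0.38, adjusted p = 0.0672), and when any 1 of the control arrays (0.101 and 0.0654) or 4 µg arrays (0.0653 and 0.166) was left out. A second ID1 probe was detected on 0 of 6 arrays.

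ID3, a relative of ID1 with the same mode of action, read 9.48 and 9.22 in the control, 9.15 and 8.70 at 2 µg and 9.17 and 9.11 at 4 µg. In these normalized values both doses lay below the control without overlap, and the 2 µg arrays lay far apart. The difference was -0.42 at 2 µg (SE 0.17, adjusted p = 0.0648) and -0.21 at 4 µg (SE 0.17, adjusted p = 0.387), and neither passed. With median scaling over all probes the difference at 4 µg was -0.0002. The scanner intensities before normalization were 754.1 and 710.7 in the control and 750.4 and 777.2 at 4 µg. The place of ID3 below the control at 4 µg thus depended on the scaling. At 2 µg the difference was -0.64 without 2 µg replicate 1 and -0.20 without 2 µg replicate 2, so its size depended on single arrays. Among the settings that left no array out, the difference at 2 µg passed with no background correction (-0.34, adjusted p = 0.0409). It also passed with the replicate number as a block (adjusted p = 0.0366).

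**Figure D3:**
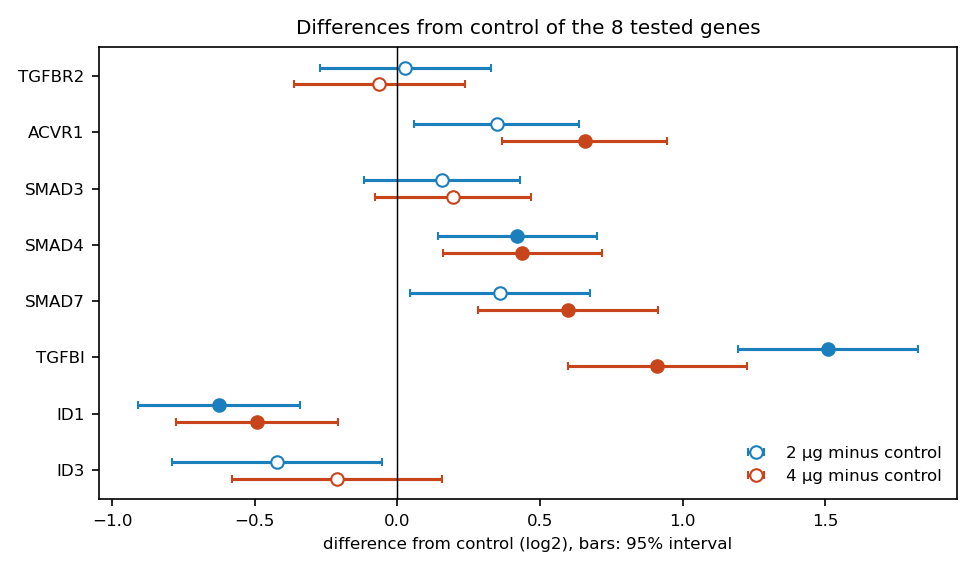
Difference from control (log2, horizontal axis) of the 8 tested genes at 2 µg and 4 µg. Points are the fitted differences, filled where the adjusted p was under 0.05, and bars are 95% intervals of limma. The TGFBI points are fitted against an undetected control and are not bounds, and its bounds are 1.75-fold at 2 µg and 1.16-fold at 4 µg. ID1 and ID3 lie to the left, and the TGFBR2 intervals are centred near 0.

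Between the doses, TGFBI was the 1 member called of 8, which is 12.5%, against 8.79% of all tested genes (5.23% higher and 3.57% lower). The arrays of the doses did not overlap for 5 of 8 members, against 57.3% of all tested genes. From 2 µg to 4 µg TGFBI fell 1.51-fold, by 0.60 (SE 0.14, adjusted p = 0.0298). The call ended without any 1 of the 4 arrays compared, with adjusted p from 0.0504 without 2 µg replicate 2 to 0.212 without 4 µg replicate 2, and 0.117 without 2 µg replicate 1 and 0.0754 without 4 µg replicate 1. Other settings that ended it were median scaling over all probes (0.095), no background correction (0.0645), the authors' processed values (0.0749) and no detection filter (0.0719). ACVR1 was higher at 4 µg by 0.31 (95% interval 0.02 to 0.60, adjusted p = 0.16) and SMAD7 by 0.24 (95% interval -0.07 to 0.56, adjusted p = 0.304), and neither passed. For SMAD4 the difference between doses was 0.02 (95% interval -0.26 to 0.30). For ID1 it was 0.13 (95% interval -0.15 to 0.42), for SMAD3 0.04, for ID3 0.21 and for TGFBR2 -0.09, and none of these passed.

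The tested genes whose values over the 6 arrays lay nearest to those of TGFBI were CCN2, IRAK2 and DUSP16. The measure was the root mean square difference of log2 values centred on each gene's mean, ranked over 8017 genes. It was 0.0544 for CCN2, 0.0808 for IRAK2 and 0.0864 for DUSP16. These distances include the control arrays, on which TGFBI was not detected, and were computed with the neqc background correction only. The TGFBI difference at 2 µg ranged from 0.66 to 2.05 with the background step, while that of CCN2 ranged from 1.39 to 1.67 over the alternatives, so the distances and ranks hold for that correction alone. CCN2, a matrix protein known as connective tissue growth factor and a textbook target of TGF-beta, read 9.59 and 9.71 in the control, 11.20 and 11.17 at 2 µg and 10.60 and 10.44 at 4 µg. Its likeness to TGFBI is what selected it here, and it was also among the listed targets of the pathway.

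Beyond the members, 95 other genes of the pathway were listed by role, 92 were on the arrays and 52 were tested. At 2 µg 11 rose and 16 fell, which is 51.9% called, against 41.6% of all tested genes, and the median difference was -0.12, against 0.03. At 4 µg 6 rose and 13 fell, which is 36.5%, against 22.0%, and the median was -0.06, against 0.03. Testing only probes detected on all arrays left 41 of these genes. There 22 (53.7%) were called at 2 µg, against 42.5% of all tested genes, and 14 (34.1%) at 4 µg, against 23.2%. Over the 52 genes, the calls at 4 µg were 8 higher and 9 lower with median scaling over all probes. All tested genes there gave 1600 and 357 (24.4% called). Scaled to the median of the tested genes, the list gave 4 and 13, against 771 and 1050 (22.7%). With the authors' processed values the list gave 7 and 10, against 1215 and 536 (21.8%). The share of the list called was 32.7% under each of these settings, and its split moved with that of all genes. The count at 4 µg was 12 (23.1%) without control replicate 1, against 9.63% of all tested genes, and 10 (19.2%) without control replicate 2 or either 4 µg array, against 11.7%, 9.08% and 9.22%.

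Among 11 ligands tested, 3 rose and 5 fell at 2 µg (72.7% called, against 41.6% of all tested genes), and 2 rose and 4 fell at 4 µg (54.5%, against 22.0%). The rises at 2 µg include INHBE and BMP2, that of INHBE recurs at 4 µg, and the falls at 2 µg include BMP4. These genes entered the test only through groups where they were higher, so the ligand shares are not independent of that filter. INHBE, the activin E subunit, was not detected in the control (0 of 2 arrays) and stood at least 4.51-fold higher at each dose (adjusted p = 4.67e-07 and 6.39e-07). BMP2, also undetected in the control, was at least 1.68-fold higher at 2 µg (adjusted p = 0.000148), while at 4 µg it was again detected on 0 of 2 arrays and at least 1.77-fold below 2 µg (adjusted p = 0.00432). GDF15, a stress-induced cytokine of the family, rose by 1.02 (SE 0.14) and 0.61 (SE 0.14). Its rise at 4 µg ended without control replicate 2 or 4 µg replicate 1, with adjusted p up to 0.0946.

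The ligands that fell at 2 µg were GDF11, BMP7, BMP4, BMP6 and INHBB, of which BMP4 and BMP6 were named after their values were seen. BMP7, a ligand known for its part in kidney development, read 9.32 and 9.17 in the control, 8.24 and 7.94 at 2 µg and 8.52 and 8.29 at 4 µg. It fell by 1.15 at 2 µg (SE 0.15, adjusted p = 0.00025) and by 0.84 at 4 µg (SE 0.15, adjusted p = 0.00424), with both calls kept under every alternative run. BMP6 fell by 0.84 (SE 0.12, adjusted p = 0.000456) and 0.55 (SE 0.12, adjusted p = 0.0111), and GDF11 fell by 1.22 and 0.47 (SE 0.14 each). INHBB, an activin subunit, fell by 0.84 and 0.69 (SE 0.17 each) and was detected on 1 of 2 arrays at 2 µg. At 4 µg the calls ended under at least 1 alternative, with adjusted p up to 0.132 for BMP6, 0.292 for GDF11 and 0.139 for INHBB, each of them without control replicate 2 or 4 µg replicate 1 among others. BMP4 was detected on 0 of 2 arrays at 2 µg and was at least 1.85-fold lower there (adjusted p = 0.000392), and at 4 µg the difference from control was -0.11 (adjusted p = 0.608).

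Among 14 SMADs and cofactors tested, 3 rose and 4 fell at 2 µg (50%, against 41.6% of all tested genes), and 1 rose and 2 fell at 4 µg, a share near that of all genes (21.4%, against 22.0%). SMAD6, the inhibitor that acts mainly on BMP signals, read 8.53 and 8.45 in the control, 7.04 and 7.38 at 2 µg and 8.04 and 8.19 at 4 µg. At 2 µg it fell 2.44-fold, by 1.29 (SE 0.15, adjusted p = 0.000112), which held under every alternative run. The difference at 4 µg was -0.37 (SE 0.15, adjusted p = 0.0922). The doses differed by 0.91 (adjusted p = 0.00709), a call that ended without 4 µg replicate 2 (adjusted p = 0.0563). SMAD9, a BMP receptor SMAD, fell by 0.76 at 2 µg (SE 0.12, adjusted p = 0.000802) and by 0.43 at 4 µg (SE 0.12, adjusted p = 0.0307). Its call at 4 µg ended with median scaling over all probes, the authors' processed values and without any 1 control or 4 µg array, with adjusted p up to 0.356.

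CREBBP, a histone acetyltransferase that SMADs recruit, rose by 0.59 and 0.60 (SE 0.13 each), the second ending without control replicate 1 or either 4 µg array (adjusted p up to 0.074). TGIF2, a corepressor, rose by 0.52 at 2 µg (adjusted p = 0.0159), as did TGIF1 by 0.49 (adjusted p = 0.0209). Both calls ended without either control array, that of TGIF1 also without 2 µg replicate 2 and that of TGIF2 without 2 µg replicate 1. FKBP1A, which binds the inactive type I receptor, fell by 0.68 and 0.92 (SE 0.16 each) at the probe that stands for it, the first of these ending without control replicate 1 or 2 µg replicate 2 (adjusted p up to 0.0722). The other 2 probes of FKBP1A kept gave -0.25 and -0.21 at 2 µg and -0.35 and -0.31 at 4 µg, and did not pass. SP1, a general transcription factor that cooperates with SMADs, fell by 0.53 at 2 µg (adjusted p = 0.0147), and this was lost without control replicate 2 or 2 µg replicate 2 and with the authors' processed values.

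Of 5 other receptors tested, 1 rose and 1 fell at 2 µg, a share near that of all tested genes (40%, against 41.6%). At 4 µg limma called 0, with 1 at an unadjusted p under 0.05, against 22.0% of all tested genes called. BMPR1B, a type I BMP receptor that was not detected in the control (0 of 2 arrays), stood at least 1.23-fold higher at 2 µg (adjusted p = 0.00693), which was lost without control replicate 2 or 2 µg replicate 2 (adjusted p up to 0.0671). TGFBR3, the coreceptor betaglycan, fell by 0.71 at 2 µg (SE 0.13, adjusted p = 0.00144) and differed from control by -0.14 at 4 µg (adjusted p = 0.454).

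Of 7 antagonists tested, 1 rose and 1 fell at 2 µg (28.6%, against 41.6% of all tested genes), and 1 rose and 2 fell at 4 µg (42.9%, against 22.0%). PMEPA1, an inhibitor that TGF-beta induces, rose by 0.53 (SE 0.13, adjusted p = 0.00656) and 0.45 (SE 0.13, adjusted p = 0.0277). At 4 µg its call ended without any 1 control or 4 µg array, with no background correction and when scaled to the median of the tested genes (adjusted p up to 0.149). FSTL1, a secreted glycoprotein, fell by 0.84 and 0.78 (SE 0.13 each), with both calls kept under every alternative run. FST, which traps activins, fell by 0.54 at 4 µg (adjusted p = 0.0272), where it was detected on 1 of 2 arrays. That call ended without either control array, without 4 µg replicate 2, with no background correction and with no detection filter.

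Among 15 further targets tested, 3 rose and 5 fell at 2 µg (53.3%, against 41.6% of all tested genes), and 2 rose and 5 fell at 4 µg (46.7%, against 22.0%). CCN2 rose by 1.53 (SE 0.13, adjusted p = 2.31e-05) and 0.87 (SE 0.13, adjusted p = 0.00162). CDKN2B, the cell cycle inhibitor p15 that TGF-beta induces, rose at 2 µg by 0.80 (SE 0.17, adjusted p = 0.00379) and stood 0.21 above control at 4 µg (adjusted p = 0.391). TSC22D1 rose at 4 µg by 0.44 (adjusted p = 0.0465), a call that ended under 9 of 17 alternatives, those without any 1 control or 4 µg array among them. CDKN1C, the inhibitor p57, was detected on 0 of 2 arrays at 2 µg and at least 1.81-fold lower (adjusted p = 0.000115), and fell by 0.75 at 4 µg (SE 0.16), which ended without control replicate 2 or 4 µg replicate 2 (adjusted p up to 0.0662). CDKN1A, the inhibitor p21, fell by 0.85 and 0.91 (SE 0.12 each). COL1A1, a collagen, fell by 0.99 and 0.87 (SE 0.14 each) and was detected on 1 of 2 arrays at each dose.

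COL1A1 is also a fibroblast marker, and all 4 tested genes of the 8 fibroblast markers fell at 2 µg and 3 at 4 µg, where 19.8% and 10.2% of all tested genes fell. The summed scanner intensity of the 8 was 2482 to 2544 in the control, 1779 to 1916 at 2 µg and 2006 to 2122 at 4 µg. COL3A1 and COL5A1 were detected on all 6 arrays, and COL1A2, DCN, THY1 and PDGFRB on 0. The muscle marker ACTA2 also fell at both doses, 4 of the 6 tested markers of HEK293T cells fell at 2 µg and 3 at 4 µg, against the same 19.8% and 10.2%, and CD68 rose at both. The part of these markers in the results was not tested.

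**Figure D4:**
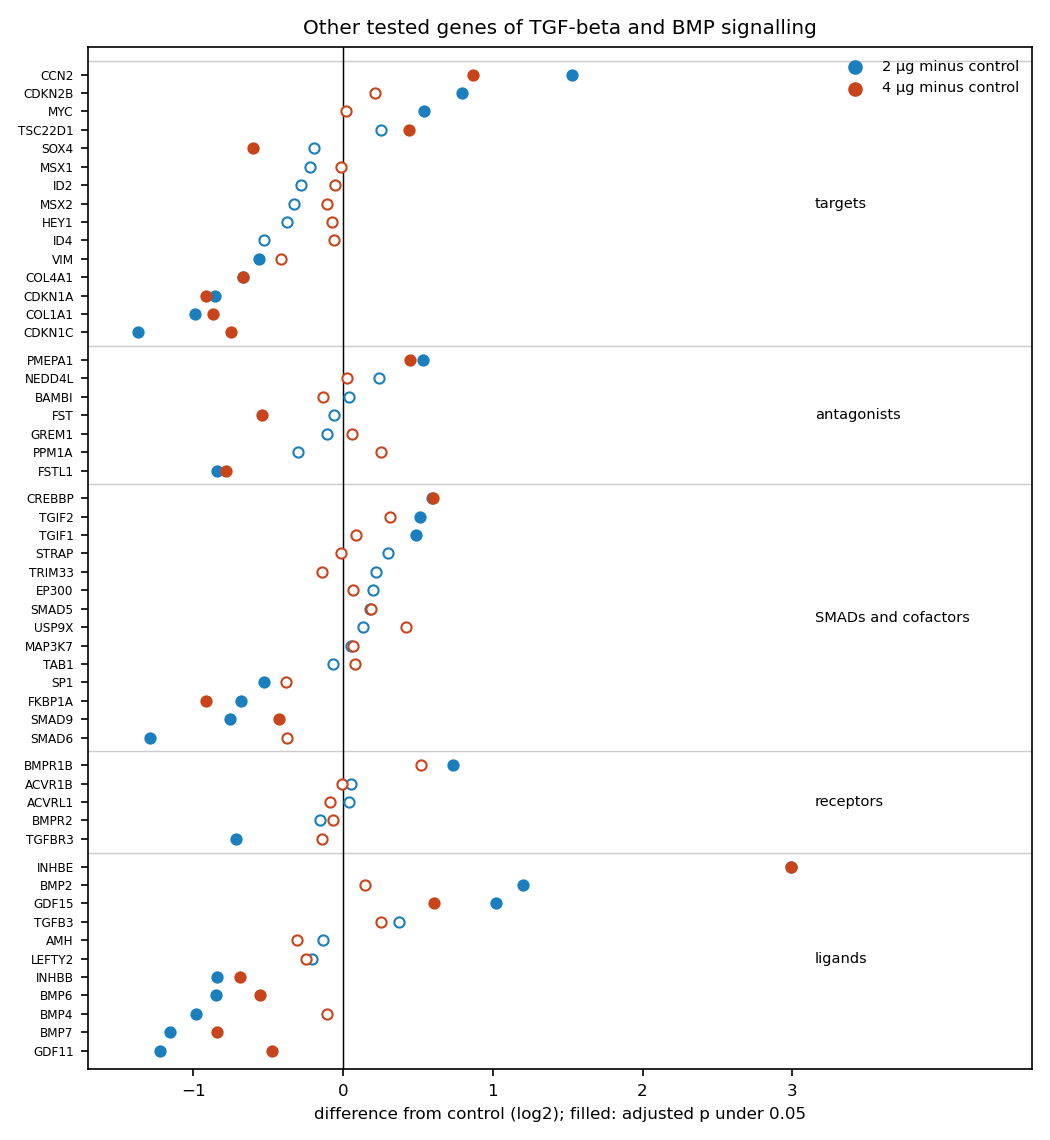
Difference from control (log2, horizontal axis) at 2 µg and 4 µg of the 52 other tested genes of the pathway, grouped by role, with 1 row per gene. Points are fitted differences, filled where the adjusted p was under 0.05, and those of genes undetected in a group, such as INHBE, are not bounds. BMP7, BMP6, GDF11 and INHBB lie left of 0 at both doses, while CCN2, PMEPA1 and INHBE lie to the right.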

How the data were processed

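Amplified total RNA was measured on Illumina Human-6 arrays, with BeadStudio as the software, per the labels' protocols and the submitters' processing notes. The deposited intensity is the mean over beads of each probe, not normalized, with a standard error and a bead number. The deposited detection p-value is given per probe and array, per the file headers. The authors' processed intensity, on the linear scale with a background subtracted, served as an alternative with a floor of 16.

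Scanner intensities were normalized with neqc of limma 3.58.1 in R 4.3.3, with an offset of 16 added before quantile normalization and log2. Of 48701 probes, 23687 had 1 gene symbol, 35 several and 24979 none. Each gene was represented by its brightest kept probe. The groups were fitted together by lmFit and eBayes (3 residual and 7.42 prior degrees of freedom), two-sided, and called at an adjusted p under 0.05. The number of arrays limits the precision, and levels of different probes were not compared.

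The 10 members were always named. Of the 5 roles of the wider list, the top 2 called genes in each direction, by size of change, were named at each dose, and where 5 or fewer were called, others were added after their values were seen. Members and lists were chosen with earlier results of these data known. Alternatives covered scaling, background, the detection filter, the choice of probe, the groups fitted, the replicate number as a block and each array left out. Those for single genes of the wider list were added after seeing the data.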

Additional observations from a re-analysis of the deposited data

How the results depend on the processing

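Precision was limited by duplicate arrays, and for TGFBR1, ACVR2A, TGFBI and other dim genes by the background of the arrays. Members called at 2 µg numbered 5 with no background correction, 5 with the authors' processed values, and 2 to 5 with 1 array left out. The first 2 of these settings called 43.0% and 39.6% of all tested genes. At 4 µg 4 members were higher and 0 lower with median scaling over all probes, where all tested genes gave 1600 and 357 (24.4% called). With the authors' processed values the members also gave 4 and 0, against 1215 and 536 (21.8%). Scaled to the median of the tested genes they gave 3 and 1, against 771 and 1050 (22.7%). The counts at 4 µg with 1 array left out are given above. Between the doses limma called 0 of 8 members with median scaling over all probes, against 12.1% of all tested genes. There 4 members had an unadjusted p under 0.05. It called 0 of 8 with no background correction (2 at that unadjusted p), against 11.6%. The authors' processed values gave 0 of 8 (2), against 7.06%. With no detection filter it was 0 of 10 (2), against 1.45%. With only probes detected on all arrays it was 0 of 7 (1, where TGFBI itself was not tested), against 9.43%. With 1 array left out it was 0 to 1, against 1.20% to 6.97%. With so few members, 0 calls cannot be told apart from shares this low. With 1 array left out, the wider list gave 10 to 20 calls at 4 µg and 2 to 8 between the doses, and all tested genes gave 728 to 2009 and 96 to 559. Without a detection filter 273 genes were called between the doses, among 18774 tested.

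Median scaling over all probes moved the median difference of all tested genes to 0.18 at 4 µg and 0.15 between the doses. The split of calls over all genes at 4 µg was 943 higher and 817 lower, and 1600 and 357 with that scaling, 771 and 1050 when scaled to the tested genes and 1215 and 536 with the authors' processed values. Between the doses it was 419 and 286, and 870 and 102 with median scaling over all probes. For the wider list between the doses it was 5 and 2, and 4 and 3 when scaled to the tested genes, and 4 and 4 with no background correction.

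Of 405 values of single members under the alternatives, 361 kept direction and side of the threshold, 25 lost a call, 8 gained one and 11 changed sign, none of them for a called difference. TGFBR2 at 2 µg was -0.10 without control replicate 2 and -0.03 without 2 µg replicate 1. TGFBR2 at 4 µg was 0.139 under the scaling over all probes and 0.0536 under the authors' values, and with 1 array left out it ran from -0.191 to 0.0623, above 0 without control replicate 1. Between the doses TGFBR2 was 0.0939 under the scaling over all probes and SMAD4 was -0.0257 when scaled to the tested genes. With 1 array left out, SMAD3 ran from -0.00672 (2 µg replicate 1) to 0.0845, ID3 from -0.0135 (2 µg replicate 2) to 0.434, and SMAD4 from -0.0359 (2 µg replicate 1) to 0.0685, also below 0 without 4 µg replicate 1 (-0.0178). The causes were not tested. Of 53 calls in the wider list, 29 held under every alternative that tested them and 24 ended under at least 1, with 0 sign changes.

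The replicate numbers were not shown to pair the arrays: differences between replicates 1 and 2 correlated across genes at -0.0932 to 0.115 between groups. With the replicate block the members called numbered 4 (2 µg), 5 (4 µg) and 1 (4 µg against 2 µg), and all genes called numbered 3330, 1753 and 709. It added the call of ID3 at 2 µg, ended that of TSC22D1 at 4 µg and changed no other call of a named gene.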

Other observations

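The other called genes of the target list were MYC, COL4A1, SOX4 and VIM. MYC, which TGF-beta lowers in many epithelial cells, rose by 0.54 at 2 µg (SE 0.17, adjusted p = 0.0264 by limma), which was lost without control replicate 1 or 2 µg replicate 1 and with no detection filter (adjusted p up to 0.202), and COL4A1, a basement membrane collagen, fell by 0.66 and 0.67 (SE 0.13 each). SOX4, a transcription factor that TGF-beta induces, fell by 0.60 at 4 µg (SE 0.16, adjusted p = 0.0249), which was lost under 6 alternatives, among them those without control replicate 1 or either 4 µg array (adjusted p up to 0.161). VIM, an intermediate filament, fell by 0.56 at 2 µg (SE 0.16, adjusted p = 0.0183), which was lost without either control array, without 2 µg replicate 2 and with no detection filter (adjusted p up to 0.107), and at 4 µg the difference was -0.41 (adjusted p = 0.0931). All 4 were named after their values were seen. BMP6 had a second kept probe, which gave -0.76 at 2 µg (adjusted p = 0.0101) and -0.42 at 4 µg (adjusted p = 0.146), in the same direction as the probe that stands for the gene.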
